A study of Mus musculus with 25 samples.

Results

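Liver RNA was compared between 8 libraries with low library numbers (1941 to 1948, here the early libraries) and 17 libraries with higher numbers (1949 to 1965, the later libraries), out of 25 libraries in all. The numbers are part of the column names of the deposited count table, and the labels do not say whether they follow collection, extraction or sequencing. Every liver was from a male C57BL6/J mouse aged 24 months that carried either a knockout at the Rosa26 locus (Rosa26KO, a commonly used control locus) or a p53 knockout (p53KO), on a control diet or on a high-fat diet (HFD). The labels do not state how either knockout was made or in which cells it acts. The early libraries held replicates 1 and 2 of each of the 4 groups, Control_Rosa26KO, HFD_Rosa26KO, Control_p53KO and HFD_p53KO. The later libraries held 5 of HFD_p53KO and 4 of each of the other groups. Library number and replicate number therefore cannot be told apart. The later libraries were also divided at number 1957 into the second set of 8 (replicates 3 and 4) and the third set of 9 (replicates 5 to 7), with the early libraries as the first set. The hour at which tissue was taken is not given in the sources used here.

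The liver runs a circadian clock in which the transcription factors ARNTL (BMAL1) and its partners CLOCK or NPAS2 bind E-box sequences and switch on their targets. Among these targets are the Per and Cry repressors, the nuclear receptors Nr1d1 and Nr1d2 (REV-ERB alpha and beta), and the output factors Dbp, Tef and Hlf. The REV-ERB receptors in turn repress Arntl, Npas2 and other genes with ROR/REV-ERB elements, so in a cycling liver both arms peak at roughly opposite times of day.

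Total counts ran from 18734627 to 21328209 in the early and from 16324283 to 21501281 in the later libraries, and 14233 of 24537 genes had enough counts to be tested. The difference in mean total count did not pass the threshold (exact two-sided permutation within groups, p = 0.172, n = 8 and 17). Trp53, the gene named in the knockout, was present at 20.2 to 43.7 CPM (counts per library scaled by TMM to a common total) in the early and 17.2 to 43.7 CPM in the later libraries. Cdkn1a, the p53 target that encodes p21, had an early median of 72.3 CPM (4.29 to 93.2) and a later median of 25.6 CPM (3.54 to 56.2). Its log2 difference was 0.065 in Control_p53KO, with early and later means of 13.9 and 13.2 CPM. In Control_Rosa26KO, HFD_Rosa26KO and HFD_p53KO it was 1.49, 0.91 and 1.57. Mdm2, another p53 target, had early and later medians of 35.7 and 33.9 CPM (exact permutation p = 0.778). The exact permutation p of Cdkn1a was 0.0112, or 0.0784 after Benjamini-Hochberg adjustment over 7 such tests, and the unadjusted exact p was under the threshold with 24 of 25 single libraries left out, the exception being Control_p53KO 1 (0.109). The adjusted p over all genes was 0.090 with edgeR, 0.032 with DESeq2 and 0.026 with limma voom. The 17 hepatocyte genes summed to 65493 to 157542 CPM (median 126917) in the early and 77265 to 186501 CPM (median 137004) in the later libraries. Of these genes 15 had a log2 difference (early minus later) below 0, with a median of -0.25 beside -0.003 over all genes tested. None passed with edgeR, while 2 were lower with DESeq2 and 1 with limma voom. The labels do not state outright that each library came from its own animal, so p-values measure only the spread between these libraries.

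Between early and later libraries, 76 of 14233 genes passed the threshold (0.534% of genes, edgeR quasi-likelihood test with group as a term, Benjamini-Hochberg adjusted p under 0.05). Of these, 57 were higher (0.4%) and 19 lower (0.133%) in the early libraries. Clock genes made up 6 of the 76. The E-box-driven genes Dbp, Nr1d1, Nr1d2 and Tef were lower, and the REV-ERB-repressed genes Npas2 and Arntl were higher. Genes outside the clock that passed included Ppard, a nuclear receptor of fatty acid metabolism, and the acute phase genes Lcn2 and Orm2. At an unadjusted p under 0.05 there were 2933 genes (20.6%). DESeq2 called 635 genes (4.46%, 306 higher and 329 lower), 73 of the 76 among them, and limma voom 694 (4.88%, 368 higher and 326 lower). For the rest of the 76, Lcn2, Orm2 and Mir5114, DESeq2 gave no adjusted p. The count depended on single libraries. It fell to 14 without Control_p53KO 1, to 23 without HFD_p53KO 2, to 35 and 38 without Control_Rosa26KO 2 and 1, and to 48 without HFD_p53KO 1. It rose to 583 without Control_p53KO 3, to 450 without HFD_Rosa26KO 6 and to 367 without Control_p53KO 2. Leaving out HFD_Rosa26KO 4, HFD_Rosa26KO 5, Control_p53KO 4, Control_p53KO 5, Control_Rosa26KO 5, Control_Rosa26KO 6, HFD_p53KO 5 or HFD_p53KO 6 gave 39 to 49.

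A fit was also made without 6 libraries chosen with earlier results of these data known, 3 early (Control_p53KO 1, Control_Rosa26KO 1 and HFD_p53KO 2) and 3 later ones (Control_p53KO 3, HFD_Rosa26KO 6 and HFD_p53KO 7). It called 37 of 14293 genes (0.259%), of which 32 were higher and 5 lower, and 19 of the 37 were among the 76. In the summed CPM of both acute phase and neutrophil genes, 5 of these 6 libraries ranked highest of all 25, while Control_p53KO 3 ranked 18 and 10. Lcn2 is on both lists. It made up 3948.9 of 4944.3 CPM of the neutrophil sum in Control_p53KO 1 and 3884.3 of 4143 CPM in HFD_p53KO 2. It made up 837.0 of 1102.5 CPM in Control_Rosa26KO 1, 533.8 of 1155.9 in HFD_Rosa26KO 6 and 451.9 of 789.4 in HFD_p53KO 7. The ranks were not taken without Lcn2. Without those 5 libraries and with Control_p53KO 3 kept, a fit added after the data were seen, edgeR called 0 of 14345 genes, with 1844 at an unadjusted p under 0.05. The log2 differences of the 6 clock genes in that fit were -2.59 for Dbp, -1.11 for Nr1d1, -0.80 for Nr1d2, -0.98 for Tef, 1.23 for Npas2 and 0.77 for Arntl (adjusted p = 0.102 to 0.208). With the replicate number as a random effect in limma voom 11 of the 76 were called. These were Nr1d1, Nr1d2, Tef, Npas2, Ppard, Itsn1, Loxl4, Neu3, Gfod1, Caskin2 and Rnf144a. That fit also lacked the sample quality weights of the other limma voom fit.

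Dbp (chr7:45705088-45710203 on GRCm38), a PAR bZIP factor that relays E-box rhythms to liver enzymes, had the largest decrease among the named genes. It stood at 4.98 and 3.56 CPM in early Control_Rosa26KO, 2.28 and 4.03 CPM in early HFD_Rosa26KO, 1.68 and 9.33 CPM in early Control_p53KO and 5.55 and 7.08 CPM in early HFD_p53KO. In the later libraries the lowest, median and highest values were 3.49, 31.0 and 78.2 CPM. A single later library, Control_Rosa26KO 3 (3.49 CPM), lay inside the early range, and all other later libraries lay above it. The fitted level was 6.23-fold lower in the early libraries (log2 difference -2.64, SE 0.46, adjusted p = 0.013). The early mean was below the later mean in each of the 4 groups, with log2 differences of -2.38 (Rosa26KO) and -2.001 (p53KO) on control diet and -3.31 and -2.93 on HFD. Exons of Dbp also overlap those of Sphk2. The adjusted p of Dbp was 0.055 without the 6 libraries and 0.103 with the replicate number as a random effect.

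**Figure D1:**
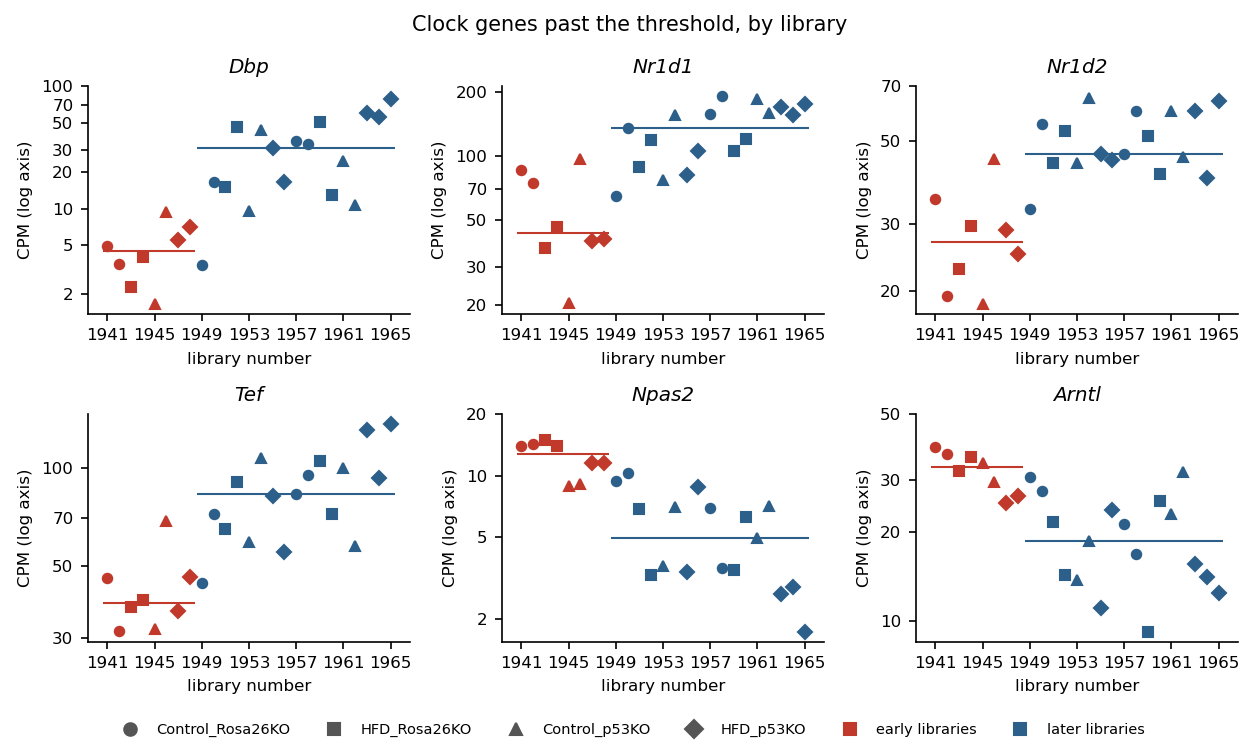
CPM (log axis) of the 6 clock genes past the threshold against library number, 1 point per library, with marker shape for the group, colour for early or later, and a line at each median. Dbp, Nr1d1, Nr1d2 and Tef sit low in the first 8 libraries and Npas2 and Arntl sit high. Library 1949 (Control_Rosa26KO 3) lies inside the early range in all 6 genes.

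Nr1d1 (chr11:98767932-98775333), the REV-ERB alpha receptor, had early values of 20.3 to 96.4 CPM with a median of 43.6, and later values of 65.0 to 190.2 CPM with a median of 135.6. The lowest early library was Control_p53KO 1 (20.3 CPM), and 4 of 17 later libraries lay inside the early range. The log2 difference was -1.30 (SE 0.24, adjusted p = 0.022, edgeR). Without HFD_p53KO 2 the adjusted p was 0.058, and with any other single library left out it stayed under the threshold. Exons of Nr1d1 overlap those of Thra, a thyroid hormone receptor gene on the opposite strand that was also lower (log2 difference -0.50, SE 0.11, adjusted p = 0.034, edgeR). The strand of counting is not given in the sources used here, so reads of the pair cannot be told apart where they overlap.

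Nr1d2 (chr14:18204054-18239127), the REV-ERB beta receptor, had a median of 27.0 CPM in the early (18.5 to 44.7) and 46.1 CPM in the later libraries (33.0 to 65.1), a log2 difference of -0.84 (SE 0.15, adjusted p = 0.013, edgeR). In this gene 6 later libraries lay inside the early range. Tef (chr15:81802421-81826863), a PAR bZIP factor related to Dbp, had a median of 38.4 CPM in the early (31.6 to 68.5) and 83.4 CPM in the later libraries (44.4 to 136.2). Its log2 difference was -0.998 (SE 0.19, adjusted p = 0.022, edgeR), with 5 later libraries inside the early range. The Tef call was lost without Control_p53KO 1 (adjusted p = 0.061) and without the 6 libraries (0.058).

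In the other arm, Npas2 (chr1:39193731-39363236), a partner of ARNTL, was at 13.97 and 14.2 CPM in early Control_Rosa26KO, 14.96 and 13.95 CPM in early HFD_Rosa26KO, 8.90 and 9.10 CPM in early Control_p53KO and 11.51 and 11.55 CPM in early HFD_p53KO. In the later libraries it ran from 1.73 to 10.2 CPM with a median of 4.97. Early and later values did not overlap inside any of the 4 groups, although 2 later libraries fell inside the whole early range. The log2 difference was 1.19 (SE 0.23, adjusted p = 0.022, edgeR). The adjusted p was 0.059 without HFD_p53KO 2 and 0.077 without the 6 libraries. Over all genes, 13 of 14233 (0.0913%) had no overlap in each of the 4 groups, and 7 of the 76 were among them. The direction was free to differ between groups in this count. Clock was also among the 13, lower in the early libraries on control diet and higher on HFD.

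Arntl (chr7:113207465-113314126), the core activator, ran from 24.98 to 38.6 CPM with a median of 33.1 in the early libraries and from 9.16 to 31.7 CPM with a median of 18.6 in the later ones. The log2 difference was 0.72 (SE 0.16, adjusted p = 0.044, edgeR). The size kept to 0.66 to 0.78 with each library left out in turn, while the adjusted p ran from 0.022 to 0.104 and was under the threshold in 9 of 25 such fits. Without the 6 libraries the difference was 0.74 with an adjusted p of 0.120, and with the replicate number as a random effect the adjusted p was 0.094.

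Of the 12 E-box-driven genes on the list, 4 were lower, none was higher and the median log2 difference was -0.83, beside -0.003 over all genes tested. Per3, a period repressor, had a median of 4.15 CPM in the early (3.20 to 9.27) and 12.4 CPM in the later libraries (2.79 to 31.5). Its log2 difference was -1.36 (SE 0.32, adjusted p = 0.053, edgeR). Ciart, a circadian repressor also called CHRONO, was at 0.35 to 0.69 CPM in the early and 0.35 to 6.42 CPM in the later libraries (log2 difference -1.64, SE 0.42, adjusted p = 0.066, edgeR). Bhlhe41 (-0.81, adjusted p = 0.097) and Hlf (-0.34, 0.278) did not pass with edgeR. Per3, Ciart and Bhlhe41 passed with DESeq2 (adjusted p = 0.001, 0.007 and 0.035). Per2 (-0.16, 0.656), Per1 (0.16, 0.817), Cry2 (-0.19, 0.452) and Bhlhe40 (0.02, 0.947) had smaller log2 differences that did not pass either.

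Of the 5 REV-ERB-repressed genes described here, 2 were higher, none was lower and the median log2 difference was 0.51. Nfil3, a repressor at D-box elements, had a log2 difference of 0.51 (SE 0.22, adjusted p = 0.195, edgeR) and Cry1, a late repressor, 0.44 (SE 0.15, adjusted p = 0.126, edgeR). Clock, the other partner of ARNTL, was near 0 (-0.01). It had log2 differences of -0.36 in Control_Rosa26KO and -0.14 in Control_p53KO against 0.22 in HFD_Rosa26KO and 0.19 in HFD_p53KO. The difference between diets was 0.45 (SE 0.11, adjusted p = 0.990, edgeR), so it did not pass over all genes.

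**Figure D2:**
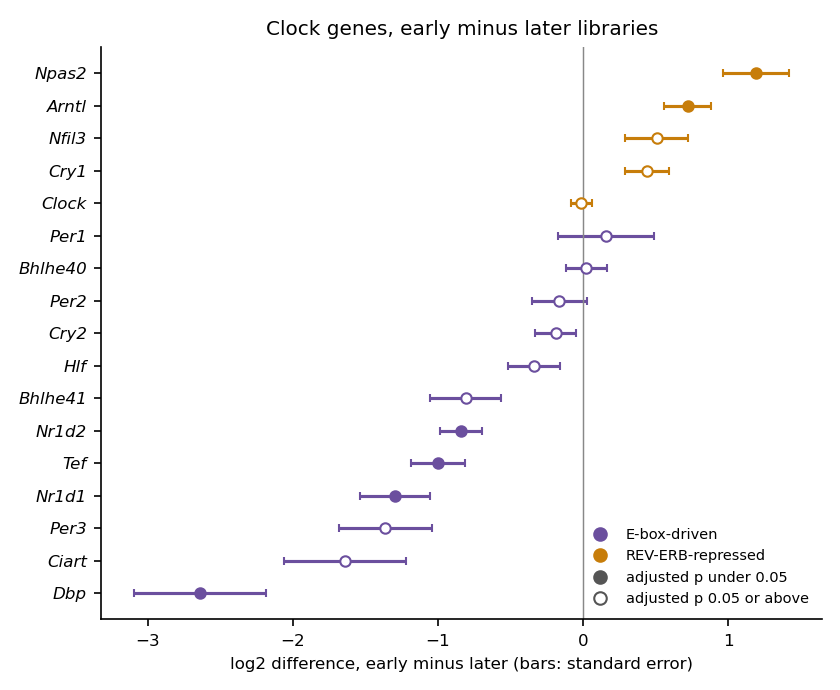
Log2 difference of early minus later libraries (x axis) with its standard error for 12 E-box-driven and 5 REV-ERB-repressed clock genes, filled where the adjusted p was under 0.05. Filled points lie at -2.64 to -0.84 among E-box-driven genes and at 0.72 and 1.19 among REV-ERB-repressed genes.

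Both arms were set against each other in each library as a clock level, the mean log2(CPM + 1) of the 5 REV-ERB-repressed genes minus that of the 12 E-box-driven genes. It ran from 0.077 to 1.14 with a median of 0.68 in the early libraries, and from -1.79 to 0.95 with a median of -0.59 in the later ones. In the second set the median was -0.49 (-0.98 to 0.95) and in the third -0.81 (-1.79 to 0.16). Control_Rosa26KO 3, in the second set, lay at 0.95 and Control_p53KO 6, in the third, at 0.16, both within the early range, and the other 15 later libraries lay below the lowest early one, Control_p53KO 2. HFD_p53KO 7, 5 and 6 (-1.79, -1.37 and -1.13) and HFD_Rosa26KO 5 (-1.51) had the lowest values. These levels use genes named in the comparison and are a description.

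**Figure D3:**
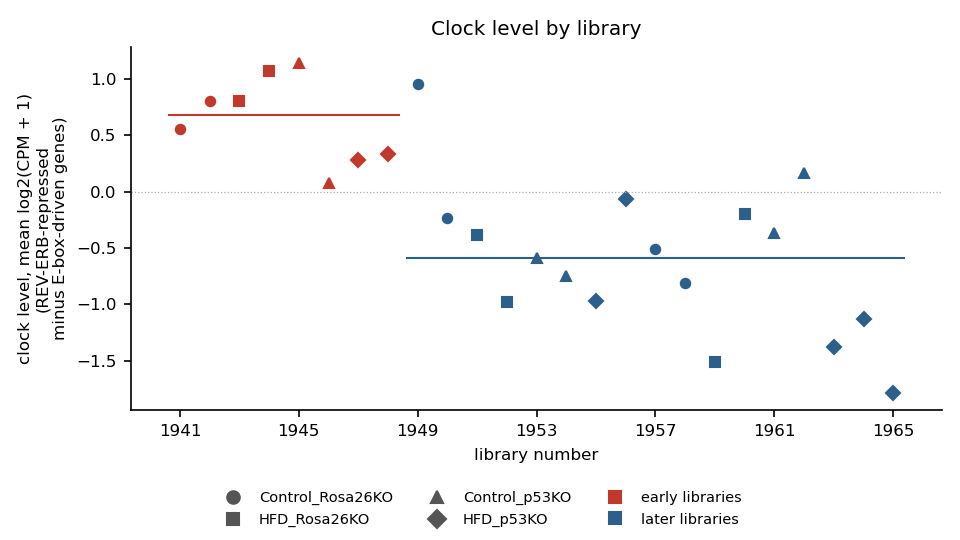
Clock level (log2 units, REV-ERB-repressed minus E-box-driven genes) against library number, 1 point per library, with a line at the early and the later median. The 8 early libraries lie between 0.077 and 1.14, and 15 of 17 later libraries lie below them, the exceptions being Control_Rosa26KO 3 and Control_p53KO 6.

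Pairs of clock genes were also compared within the 17 later libraries after each group's mean was taken out. Arntl and Npas2 deviated in the same direction (Pearson r = 0.78, permutation within groups p = 0.0009, Spearman rho = 0.81, p = 0.00072, adjusted p = 0.0054 and 0.0043 over 6 pairs). Without the 2 libraries farthest from the Arntl median r was 0.75. Arntl and Ciart deviated in opposite directions (r = -0.62, p = 0.0154, rho = -0.65, p = 0.0134, adjusted p = 0.0379 and 0.0403), and without those 2 libraries r was -0.51 (permutation p = 0.0444) and rho -0.50 (permutation p = 0.0529). For Arntl and Dbp r was -0.61 (permutation p = 0.019, adjusted 0.0379) and rho -0.60 (p = 0.0224, adjusted 0.0449), and without those 2 libraries r was -0.50 and rho -0.49, neither of which passed (permutation p = 0.0925 and 0.106). Arntl with Per3 (r = -0.52, permutation p = 0.0337, adjusted 0.0505) and rho (-0.47, adjusted p = 0.110) did not pass after adjustment, nor did Arntl with Per2 (r = -0.50, adjusted p = 0.0764, rho = -0.47). Arntl with Nr1d1 had r = -0.01 (permutation p = 0.958) and rho = -0.10 (p = 0.718). Each group holds only 2 early libraries, so deviations there are mirror images and no pair was computed.

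The other called genes were set beside the clock level inside the later libraries. Of the 55 called genes outside both clock lists that were higher in the early libraries, 51 (92.7%) had a positive correlation with the clock level over the 17 later libraries, with a median r of 0.34. Of the 15 that were lower, 13 had a negative correlation, with a median r of -0.19. Over 14216 tested genes outside both lists, 48.2% were positive with a median r of -0.01. These correlations are across libraries after the group means were removed and are given as a description.

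Promoter sequence was examined in the 250 bases before each annotated start (RefSeq, GRCm38.p6), on both strands, for the E-box CACGTG, the D-box TTANGTAA bound by Dbp, Tef, Hlf and Nfil3, and the ROR/REV-ERB element. Of 10917 tested genes with a window, 1045 (9.57%) held the E-box, 194 (1.78%) the D-box and 55 (0.504%) the ROR/REV-ERB element. Among E-box-driven clock genes with a window the E-box was in 4 of 10, namely Per1, Tef, Ciart and Bhlhe41. The windows of the called genes Dbp, Nr1d1 and Nr1d2 held no match to any of the motifs. Of the 5 REV-ERB-repressed genes 1 held the E-box (Cry1). Among the called genes the E-box was in 3 of 13 lower and 1 of 38 higher ones. The D-box was in 3 of 38 higher and 0 of 13 lower called genes. No ROR/REV-ERB match lay in the windows of the called genes or of either clock list. The windows below show the clock-list gene with the most E-boxes in its window (Ciart), a called gene (Tef, its inner start) and the E-box-driven list member with D-boxes (Per3), written 5′ to 3′ on the gene's strand, with motif matches in capitals.
Ciart: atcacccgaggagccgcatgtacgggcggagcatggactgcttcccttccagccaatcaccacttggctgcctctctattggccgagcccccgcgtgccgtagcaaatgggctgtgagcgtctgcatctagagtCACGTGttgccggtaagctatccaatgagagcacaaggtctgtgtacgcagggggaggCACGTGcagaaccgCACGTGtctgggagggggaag
Tef: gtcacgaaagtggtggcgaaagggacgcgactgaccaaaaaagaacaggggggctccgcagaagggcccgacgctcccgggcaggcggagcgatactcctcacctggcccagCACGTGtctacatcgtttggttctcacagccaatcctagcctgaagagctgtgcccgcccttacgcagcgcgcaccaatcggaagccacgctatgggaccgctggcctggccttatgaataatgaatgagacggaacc
Per3: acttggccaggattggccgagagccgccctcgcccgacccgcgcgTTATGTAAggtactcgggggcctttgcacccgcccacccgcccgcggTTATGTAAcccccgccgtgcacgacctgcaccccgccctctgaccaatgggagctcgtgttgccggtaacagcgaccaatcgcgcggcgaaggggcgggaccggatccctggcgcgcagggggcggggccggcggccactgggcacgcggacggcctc
The Ciart window is chr3:95882252-95882478 (minus strand), cut where an annotated exon begins, with E-boxes that start at bases -116, -58 and -44 from the annotated start. The Tef window is chr15:81811164-81811413 (plus strand), with an E-box at -138. The Per3 window is chr4:151044666-151044915 (minus strand), with D-boxes at -205 and -158. The matches are descriptions of these windows and were not tested as sites.

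Of 20 clock-controlled liver genes downstream of the core clock, none was called by edgeR, 14 lay below 0 and the median log2 difference was -0.22, while DESeq2 called 3 and limma voom 5 lower. Over all 14233 genes tested, 7224 lay below 0 with edgeR, and DESeq2 called 329 and limma voom 326 lower. Rgs16, a regulator of G-protein signalling, had mean levels of 25.9 CPM in the early and 111.1 CPM in the later libraries (log2 difference -2.19, adjusted p = 0.089, edgeR). Upp2, a uridine phosphorylase, had 77.5 and 150.7 CPM (-1.07, adjusted p = 0.118). None of 10 clock modifiers, such as the kinase Csnk1d (0.07, adjusted p = 0.452), was called by edgeR, DESeq2 or limma voom, and their median was 0.04.

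Outside the clock, Ppard (chr17:28232700-28301474) had the smallest p of all genes. It was at 42.0 and 44.3 CPM in early Control_Rosa26KO, 35.2 and 29.6 CPM in early HFD_Rosa26KO, 34.9 and 17.5 CPM in early Control_p53KO and 19.5 and 21.0 CPM in early HFD_p53KO. The later libraries ran from 8.11 to 21.6 CPM with a median of 12.7. The early libraries were 2.09-fold higher (log2 difference 1.07, SE 0.16, adjusted p = 0.0081, edgeR), and 4 later libraries lay inside the early range. The difference was 1.05 without the 6 libraries (adjusted p = 0.046) and 1.05 without the 5 (0.077).

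Itsn1, an endocytic scaffold, ran from 55.5 to 69.5 CPM in the early and 38.5 to 58.8 CPM in the later libraries, and its early and later values did not overlap in any of the 4 groups (log2 difference 0.43, SE 0.07, adjusted p = 0.0088, edgeR). Loxl4, a lysyl oxidase of the extracellular matrix, had a median of 16.3 CPM in the early and 4.29 CPM in the later libraries (log2 difference 1.43, SE 0.24, adjusted p = 0.013, edgeR). Neu3, a membrane sialidase, had medians of 11.1 and 4.92 CPM (1.28, SE 0.22, adjusted p = 0.013, edgeR). Gfod1 (0.82), Caskin2 (0.82) and the ubiquitin ligase Rnf144a (0.72) were also higher, and these 6 genes kept their call without the 6 libraries, though not without the 5 (adjusted p = 0.051 to 0.102). Rnf144a had no overlap in any group, and its adjusted p was 0.051 without Control_p53KO 1. Il6st, the shared receptor subunit gp130 of the interleukin 6 family, rose from a later median of 111.3 CPM to an early median of 160.7 CPM (log2 difference 0.45, SE 0.09, adjusted p = 0.022, edgeR). Its adjusted p was 0.083 without the 6 libraries and 0.082 with the replicate number as a random effect.

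Outside the clock lists 15 genes were lower. Tpm2, a tropomyosin, had the largest decrease of those named (log2 difference -1.14, SE 0.24, adjusted p = 0.032, edgeR), with medians of 4.499 CPM in the early and 10.4 CPM in the later libraries. Ugp2, which makes UDP-glucose for glycogen, fell from a later median of 387.7 CPM to an early median of 246.8 CPM (-0.63, SE 0.14, adjusted p = 0.036, edgeR). Tbc1d10a (-0.49), Bri3 (-0.48), Uqcrb (-0.41), Cfap20 (-0.39), Pttg1 (-0.38), Mtif3 (-0.37), Ypel3 (-0.32) and Tmem50a (-0.26) were also lower. Without the 6 libraries none of these 10 genes passed (adjusted p = 0.052 for Cfap20 to 0.112 for Bri3), with log2 differences of -1.11 for Tpm2 to -0.21 for Tmem50a. Uqcrb encodes a subunit of respiratory complex III, and Mtif3 a mitochondrial translation initiation factor.

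Lcn2 and Orm2 had the largest log2 differences among the named genes. Lcn2, the iron-binding acute phase protein lipocalin 2, was at 3948.9 CPM in Control_p53KO 1, 3884.3 CPM in HFD_p53KO 2 and 837.0 CPM in Control_Rosa26KO 1, and between 68.7 and 414.3 CPM in the other 5 early libraries. The later libraries ran from 8.78 to 533.8 CPM with a median of 102.6. The log2 difference was 3.79 (SE 0.73, adjusted p = 0.022, edgeR), and without the 6 libraries it was 1.15 (adjusted p = 0.137). Leaving out Control_p53KO 1, HFD_p53KO 2 or Control_Rosa26KO 1 alone gave an adjusted p of 0.105, 0.109 and 0.074.

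Orm2, orosomucoid 2, had medians of 229.3 and 57.1 CPM (log2 difference 3.80, adjusted p = 0.047, edgeR; 1.04 and 0.180 without the 6). The fitted log2 differences of Chil1 (2.74), Bmper (2.25), Elf3 (2.10), Sybu (1.70), Armcx4 (1.42), Scd2 (1.36) and Ace (1.23) passed the threshold, and none of these 7 passed without the 6 libraries, where they were 0.40, 1.12, 1.24, 1.001, 0.76, 1.22 and 0.74. Bmper binds bone morphogenetic proteins, Elf3 is an epithelial ETS factor, Scd2 a fatty acid desaturase whose exon overlaps the microRNA gene Mir5114, and Ace the angiotensin-converting enzyme. Of the clock genes, Nr1d1 and Nr1d2 kept their call without the 6 libraries (adjusted p = 0.042 each).

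Of 23 acute phase genes, 2 were higher with edgeR, 22 lay above 0 and the median log2 difference was 0.92. DESeq2 and limma voom each called 8 of them higher. Limma voom with the replicate number as a random effect, and without sample quality weights, called none. Over all 14233 genes tested, 7009 lay above 0 with edgeR, and DESeq2 called 306 and limma voom 368 higher. The summed level of the acute phase genes is given next. Their summed level ran from 21698 to 146137 CPM with a median of 46133 in the early and from 20026 to 66727 CPM with a median of 30325 in the later libraries. Of 15 tested neutrophil genes, Lcn2 alone was called by edgeR and all 15 lay above 0, with a median of 1.28, and the list's summed level ran from 165 to 4944 CPM in the early and from 221 to 1156 CPM in the later libraries. None of its 17 genes was at 0 in every library. Lcn2, which is on both lists, supplied 3948.9 of the 4944 CPM in the highest library, Control_p53KO 1. Without the 6 libraries the medians were 0.22 (18 of 23 above 0) and 0.83 (12 of 14 above 0), and without the 5 they were 0.26 (19 of 23) and 0.32 (13 of 15). Whether these levels have a part in the differences of the other genes was not tested. In bulk tissue, fewer cells of a type and less RNA per cell cannot be told apart.

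**Figure D4:**
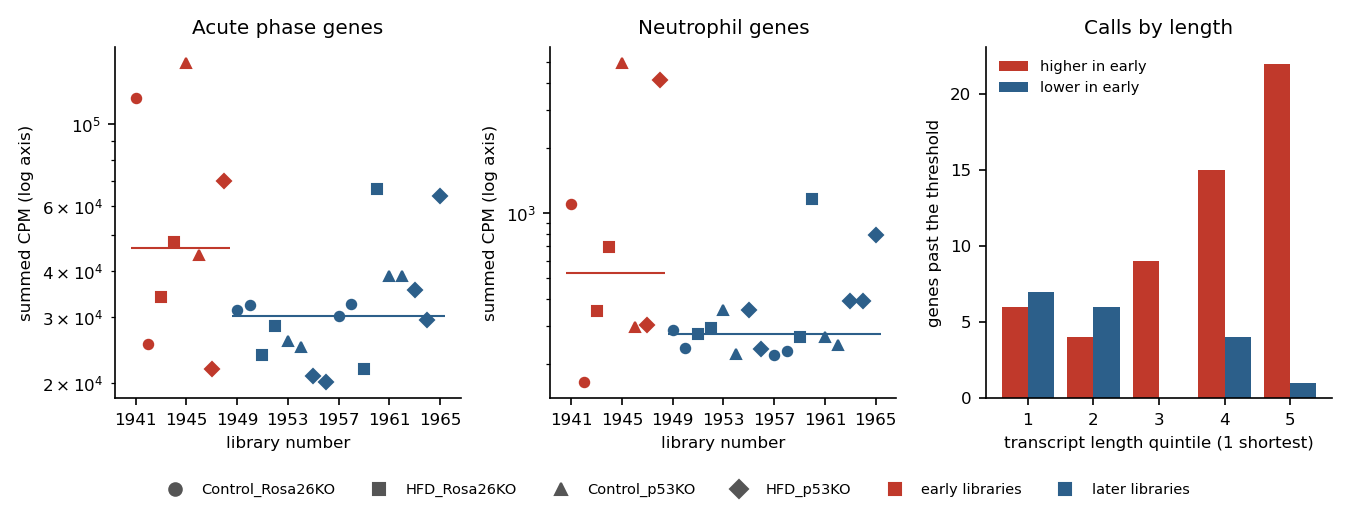
Summed CPM (log axis) of acute phase genes and of neutrophil genes against library number, 1 point per library with lines at the medians, and the number of genes past the threshold by transcript length quintile. Control_p53KO 1 (library 1945) is highest in both sums, and the longest quintile holds 22 genes higher and 1 lower in the early libraries. Lcn2 is counted in both sums.

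Other lists had few or no calls with edgeR. Over all 14233 genes tested, 7009 lay above 0 and 7224 below 0 with edgeR. DESeq2 called 306 of all genes higher and 329 lower (4.46% in all), and limma voom 368 and 326 (4.88%). Of 75 oxidative phosphorylation genes 1 was lower (Uqcrb), all 75 lay below 0, and the median log2 difference was -0.28, or -0.26 without the 6 libraries. DESeq2 called 23 of them lower and limma voom 34. Of 84 ribosomal protein genes none was called by edgeR, 79 lay below 0 and the median was -0.14, while DESeq2 called 8 and limma voom 1 lower. All 16 endothelial genes lay above 0 with none called by edgeR and a median of 0.40, while DESeq2 called 3 and limma voom 8 higher. All 13 male-biased liver genes lay below 0 with none called by edgeR and 1 called lower by DESeq2 (median -0.49), and 5 of 13 lay above 0 without the 6 libraries. Among 24 p53 targets 1 was higher, Zmat3, an RNA-binding protein (log2 difference 0.48, adjusted p = 0.032, edgeR), with a median of 0.20, while DESeq2 called 4 and limma voom 3 higher. Of 24 cytochrome P450 and conjugation genes 21 lay below 0 (median -0.35). EdgeR called none of them, DESeq2 6 lower and limma voom 3 lower. Of 27 cell cycle genes 24 lay above 0 (median 0.50), with none called by edgeR, DESeq2 or limma voom. All 10 cholangiocyte genes lay above 0 with edgeR (median 0.39, none called), but only 4 with limma voom. DESeq2 called 2 of these higher and limma voom 1. None of 18 heat shock genes (-0.07), 22 immediate early genes (0.44, 18 above 0), 18 fasting genes (-0.10), 20 lipogenic genes (-0.11) or 24 interferon genes (0.06) was called by edgeR. DESeq2 called 1 immediate early and 1 fasting gene higher, and limma voom 1 immediate early gene.

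The calls were also counted by transcript length. In the shortest quintile of genes (up to 1896 bases, longest annotated transcript) 6 genes were higher and 7 lower, and the median log2 difference was -0.09. In the longest quintile (5151 bases and more) 22 were higher and 1 lower, and the median was 0.05. By GC content the medians ran from -0.05 in the lowest to 0.03 in the highest quintile, with 4 higher and 3 lower calls in the lowest and 16 and 8 in the highest. The part of length and GC content in the calls was not tested.

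With the later libraries divided, the first set differed from the second in 1 gene (Caskin2, 0.00703%) and from the third in 81 genes (0.569%, edgeR), 47 of them higher (0.33%) and 34 lower (0.239%). DESeq2 called 239 and 656 genes and limma voom 208 and 288 for these comparisons. The count of 81 ran from 10 to 495 with single libraries left out. At an unadjusted p under 0.05 the second and the third sets differed in 1936 genes, and none passed after adjustment with edgeR, while DESeq2 called 21. Dbp means were 4.81 ± 2.52 CPM (SD, n = 8) in the first, 22.8 ± 15.9 CPM (SD, n = 8) in the second and 40.3 ± 22.7 CPM (SD, n = 9) in the third set. Npas2 means were 12.3 ± 2.36, 6.58 ± 2.83 and 4.39 ± 1.99 CPM in the same order. Against the third set, Dbp, Nr1d1, Nr1d2, Tef and Npas2 passed (adjusted p = 0.011 to 0.017) and Arntl did not (0.072). Against the second set none of these 6 passed (adjusted p = 0.104 to 0.140), with log2 differences of -2.23, -0.95, -0.78, -0.77, 0.93 and 0.69 in the order Dbp, Nr1d1, Nr1d2, Tef, Npas2 and Arntl. Between the second and the third sets these genes differed by -0.71 to 0.56 with no call. Both differences share the first set.

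The difference between early and later libraries was not called as different between diets or between genotypes in any gene (0 of 14233 in each, edgeR, with 654 and 257 at an unadjusted p under 0.05), and DESeq2 and limma voom also called 0 in both. With 2 early libraries a group, fits to 1 diet or 1 genotype alone called 0 genes on control diet, 2 on HFD, 1 in Rosa26KO and 0 in p53KO.

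The diet comparison was fitted with and without the early-later term. HFD against control diet called 1575 genes with it (11.1%, with 758 or 5.33% higher and 817 or 5.74% lower) and 1383 without it. The coefficient of variation between libraries was 27.0% with the term and 28.2% without. Among the 17 clock genes Clock alone passed in both fits, lower on HFD by a log2 difference of -0.25 (SE 0.07, adjusted p = 0.019 with the term and 0.018 without, edgeR). In the later libraries mean Clock was 35.3 CPM on control diet and 27.2 CPM on HFD in Rosa26KO, and 36.9 and 27.7 CPM in p53KO. In the early libraries the means were 27.4 and 31.7 CPM in Rosa26KO, and 33.6 and 31.5 CPM in p53KO. The SE of the diet effect on Dbp was 0.37 with the term and 0.56 without, with log2 differences of 0.55 and 0.79 that did not pass (adjusted p = 0.380 and 0.421). For Nr1d1 the SE was 0.21 with the term and 0.31 without. No gene was called between genotypes in either fit.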

How the data were processed

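PolyA RNA of flash-frozen liver was sequenced as paired reads, per the labels' protocols. The authors deposited raw read counts per gene in 1 table. Per the submitters' processing notes, STAR and HOMER were used with GRCm38/mm10. Their versions, the annotation and the strand of counting are not stated there. Symbols were matched to GENCODE M21 for positions, and 97.6% of tested genes had a length.

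Genes were kept by filterByExpr (minimum count 10, minimum total 15) and scaled by TMM. The main test was edgeR 4.0.16 (quasi-likelihood, robust) on all 25 libraries with group and early-later terms. DESeq2 1.42.0 and limma 3.58.1 voom with sample quality weights were alternatives, in R 4.3.3. The voom fit with the replicate number as a random effect had no such weights. Single values had exact two-sided permutation tests within groups (70875 arrangements), and gene pairs 100000 permutations within groups. Trp53, Cdkn1a, Mdm2 and the gene pairs were on log2(CPM + 1), while total counts and principal components were used as they stood. The procedure was tested on simulated data. The 40 gene lists, members and tests were chosen with earlier results of these data known. One REV-ERB-repressed list member is not reported here, and that list's counts, median and clock level were computed without it. Named were the 17 other genes of both clock lists, Trp53, Cdkn1a and Mdm2, and, from called genes that averaged 1 CPM or more, the 12 highest and lowest log2 differences, the 10 of smallest p in each direction, and up to 4 members of lists with 3 or more calls, with clone names passed over. Zmat3, Rgs16, Upp2 and Csnk1d were named after their values were seen. All 25 libraries enter the main values.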

Additional observations from a re-analysis of the deposited data

Results flagged for a closer look

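In the 8 early libraries, 52 values were tested for a library that stands apart by its gap to the nearest other, and 7 did. About 5% such groups is marked by chance. That rate was not tested for these values, which mix the 4 groups and include genes chosen for their differences. Control_p53KO 1 stood apart as high in Bmper (21.4 CPM, next 6.48), Elf3 (67.2 CPM, next 12.6), Scd2 (312.9 CPM, next 156.4) and Caskin2 (62.1 CPM, next 41.4). The same library had the highest summed acute phase level. Control_p53KO 2 stood apart as high in Per3 (9.27 CPM, next 5.62) and Tef (68.5 CPM, next 46.2). Control_Rosa26KO 2 stood apart as low in Clock (24.96 CPM, next 29.9).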

How the results depend on the processing

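The count of genes called between early and later libraries (76) was 635 with DESeq2, 694 with limma voom with quality weights, 37 without the 6 libraries chosen with earlier results known, and 0 without the 5 of them highest in acute phase and neutrophil sums (with 1844 genes at an unadjusted p under 0.05, edgeR). It was 0 on control diet only, 2 on HFD only, 1 in Rosa26KO only and 0 in p53KO only, fits that hold fewer libraries. With each library left out in turn it ran from 14 to 583. RLE scaling, no filter, a fit without the robust option and equal weights for the groups stayed within 1.5 times. The first against the second set (1 gene) gave 239 with DESeq2, 208 with voom and 0 to 12 with libraries left out. The first against the third set (81 genes) gave 656 with DESeq2, 288 with voom, 46 without a filter and 10 to 495 with libraries left out. The second against the third set (0 genes) gave 21 with DESeq2 and 0 to 1 with libraries left out, and the difference between diets (0 genes) gave 0 to 4. The cause of these shifts was not tested.

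The replicate number coincides with the library sets, so a fixed replicate block could not be fitted. With the replicate block as a random effect in limma voom, 11 genes were called (8 higher and 3 lower). All were among the 76, with 4 clock genes (Nr1d1, Nr1d2, Tef and Npas2). The sample quality weights of the other limma voom fit were also left out, and these changes were not tested apart. The consensus correlation of libraries that share a number was 0.07. Under that fit Bhlhe40 had a log2 difference of -0.023.

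The 76 called genes kept their direction in every fit of this comparison, apart from 1 gene that was not tested on HFD only. These genes were chosen by their difference in the same libraries, so a kept direction is a description and no independent check. Sign changes were seen in uncalled genes near 0. Per1, early minus later, was -0.17 on HFD only, -0.035 without the 5 libraries and -0.087 in p53KO only. Per2 was 0.069 on control diet only and 0.019 in p53KO only. Bhlhe40 was -0.16 on control diet only and -0.14 to 0.10 with libraries left out. Clock was 0.026 with voom, 0.19 on HFD only, 0.019 in p53KO only and -0.041 to 0.045 with libraries left out. Mdm2 was -0.13 on control diet only and -0.014 to 0.049 with libraries left out. In the exact tests with libraries left out, the mean difference ran from -0.0056 to 0.039 for Mdm2, 0.71 to 1.27 for Cdkn1a, 9.10 to 21.9 for principal component 1 and 7.92 to 16.9 for principal component 2. These components, of the 1000 most variable genes, held 37.3% and 18.7% of the variance. With all libraries neither passed (exact permutation p = 0.072 and 0.063, adjusted p = 0.169 each). Without the 2 libraries farthest from the Arntl median, r was 0.055 for Arntl and Nr1d1, -0.50 for Dbp and -0.38 for Per3.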
